A study of Mus musculus with 13 samples.

Results

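The RNA of 8 prostaglandin enzyme genes was followed in 13 libraries of whole mouse testis. The genes were chosen by name: the cyclooxygenases Ptgs1 and Ptgs2, the prostaglandin D synthases Ptgds and Hpgds, the prostaglandin E synthases Ptges, Ptges2 and Ptges3, and the breakdown enzyme Hpgd. All 8 are among the 25965 genes of the deposited table. No threshold on a level or a difference enters the choice. The set was put together with earlier results from the same libraries known, so the p-values below describe these libraries and are no independent evidence.

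The testes came from adult mice aged 15 weeks, with the tunica albuginea removed. By their labels, 6 libraries were from Wfdc15a-/- mice (KO), 4 from Wfdc15a+/- mice (Het) and 3 from wild-type mice (WT). The design text pools Het and WT as the control (n = 7) and asks what Wfdc15a does in spermatogenesis. The design of the knockout allele, the strain and the litters were not given by the sources used. No label says whether replicates of a group are separate mice, so p-values measure the spread between these libraries, which may be technical. The titles carry a number of unstated meaning, which is 1 for KO replicates 1 to 3 and Het replicate 1 and 2 for all other libraries.

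Prostaglandins are lipid signals made from arachidonic acid, which phospholipases free from membranes. A cyclooxygenase turns it into prostaglandin H2, and a terminal synthase then makes prostaglandin D2, E2, F2 alpha, prostacyclin or thromboxane. The dehydrogenase Hpgd starts their inactivation. In the fetal mouse gonad prostaglandin D2 takes part in Sertoli cell development beside the transcription factor Sox9.

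Values are in RPM, the reads of a gene scaled to a common library total. Libraries held 4.22 to 10.1 M (mega) reads in genes, and 1 read was worth 0.0899 to 0.222 RPM. A count of 0 allows up to 3 reads (95% confidence, counting error only), or 0.27 to 0.665 RPM. Wfdc15a itself stood at 19.4 to 33.4 RPM in KO libraries of number 1 and 48.1 to 81.3 RPM in those of number 2, against 53.5 to 85.8 RPM in the controls. As the number 2 libraries overlap the controls, all 6 are called libraries labelled KO. Germ, Sertoli and Leydig cell markers were present in every library, as the tissue label requires. Fewer cells of a type and less RNA per cell cannot be told apart in whole tissue.

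The upstream windows of Ptgds and Ptges are shown because these were the members that passed the test in libraries labelled KO against control. Each holds the 250 bases before the RefSeq start in GRCm38.p6, 5′ to 3′ on the minus strand. In the table's mm10 coordinates the genes lie at chr2:25466709-25470046 (Ptgds) and chr2:30889471-30929863 (Ptges), and the windows at chr2:25469750-25469999 and chr2:30903298-30903547. Both windows lie inside those spans, so the RefSeq starts used are downstream of the outermost starts of the genes as counted. Capitals mark a match to any of 4 motifs.
Ptgds: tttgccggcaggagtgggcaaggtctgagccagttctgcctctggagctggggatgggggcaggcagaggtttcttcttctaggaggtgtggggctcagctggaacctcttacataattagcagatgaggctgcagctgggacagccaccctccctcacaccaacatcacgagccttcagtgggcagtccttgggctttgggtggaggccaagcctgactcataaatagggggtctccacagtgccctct
Ptges: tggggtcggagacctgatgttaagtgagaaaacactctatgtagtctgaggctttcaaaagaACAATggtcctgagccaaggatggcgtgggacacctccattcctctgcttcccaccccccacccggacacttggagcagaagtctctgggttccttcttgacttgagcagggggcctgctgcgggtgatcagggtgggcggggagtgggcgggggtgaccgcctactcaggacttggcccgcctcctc

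The motifs were searched on both strands and do not overlap in these windows. The first was AAGGTCA, a site of SF-1 type receptors, which 4.08% of 32851 RefSeq upstream windows of this length held. The SOX core, spelled ACAAT, was in 27.7% of them. The cyclic AMP response element, TGACGTCA, was in 1.55%, and the TATA box, searched as TATAAA, in 12.4%. The Ptgds window held none of them, and that of Ptges held the SOX core at positions -188 to -184 from the start. Only exact spellings were counted, so the similar cataaata near the end of the Ptgds window was not. Of the 8 members, 2 (Ptges and Hpgd) held the SOX core and none the other motifs. A motif match is a description and not a binding site.

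Ptgds, the lipocalin-type prostaglandin D synthase, had the highest level per length of the 8 and was higher in libraries labelled KO than in control. It had a lowest value of 882, a median of 1095 and a highest value of 1439 RPM in libraries labelled KO. Het replicates 1 to 4 had 341, 656, 548 and 536 RPM, and WT replicates 1 to 3 had 857, 927 and 743 RPM. Of the 6 libraries labelled KO, 5 lay above all 7 controls, and KO replicate 3 lay within the WT range. The means were 1131 ± 188.5 RPM in libraries labelled KO (SD, n = 6) and 658 ± 203 RPM in the controls (n = 7). The log2 difference of RPM + 1 was 0.83 (SE 0.168, limma adjusted p = 0.00118), or 1.78-fold.

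The 2 kinds of control had different values of Ptgds in these libraries, a difference that did not pass the test. Het libraries averaged 520.3 ± 131 RPM (SD, n = 4) and WT libraries 842 ± 92.5 RPM (n = 3), and their ranges did not overlap. For how many of all genes the ranges of such groups do not overlap was not counted, here or elsewhere in the text. The order of means was libraries labelled KO, WT, Het. Het replicate 1, the lowest library at 341 RPM, is of title number 1, while all WT libraries are of number 2. Libraries labelled KO exceeded Het by 1.14 (SE 0.144, limma adjusted p = 2.03e-05), with all 6 above every Het library. Against WT the difference was 0.41 (95% interval 0.09 to 0.74) with limma adjusted p = 0.104, so these neighbours in the order were not separated by the test. Het against WT gave -0.73 (95% interval -1.08 to -0.37), unadjusted p = 0.000376 and limma adjusted p = 0.502. That unadjusted p was the 12th smallest of the 16235 genes tested, and 5.89% of all genes had an unadjusted p below 0.05 in that comparison. Without single libraries the difference of Het against WT ranged from -0.85 to -0.54 (limma adjusted p = 0.145 to 0.996).

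**Figure D1:**
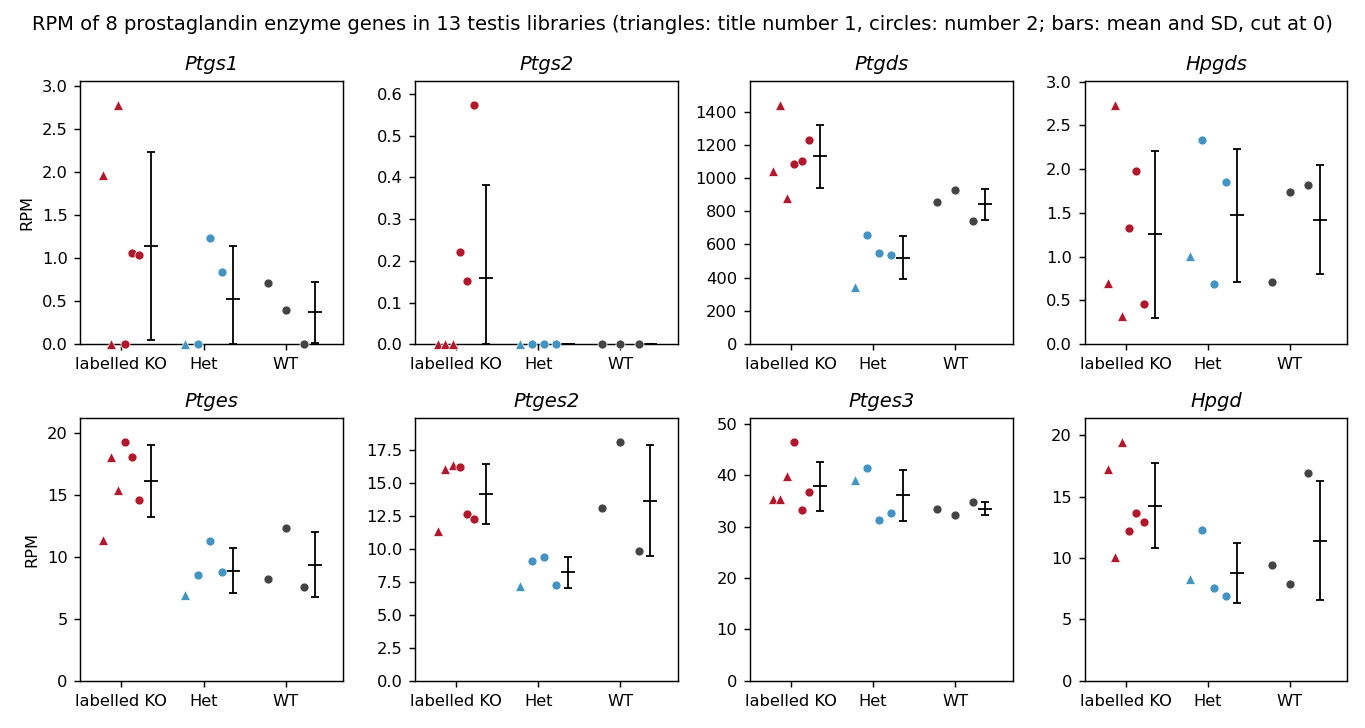
RPM of the 8 genes in each library, with libraries labelled KO on the left, then Het, then WT; bars give mean and SD, and each panel has its own axis from 0. Ptgds lies at 882 to 1439 RPM in libraries labelled KO, with the 4 Het libraries (341 to 656 RPM) below all 3 WT libraries (743 to 927 RPM).

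The level of Ptgds did not differ by title number beyond the spread. The KO libraries of number 2 had 1140.4 ± 78.9 RPM and those of number 1 had 1121 ± 287 RPM (SD, n = 3 each). The difference was 0.05 (95% interval -0.33 to 0.43, limma adjusted p = 0.940). Among number 2 libraries alone, libraries labelled KO exceeded the controls by 0.71 (SE 0.146, limma adjusted p = 0.00512), and their 3 values lay above all 6 controls of that number. Number 1 has a single control, Het replicate 1 at 341 RPM, which gives no test within that number.

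Hpgds, the hematopoietic prostaglandin D synthase of mast cells and other immune cells, was near the limit of detection. It had 0.327 to 2.73 RPM in libraries labelled KO (2 to 22 reads), against 0.688 to 2.34 RPM in the controls (5 to 26 reads). The log2 difference was -0.18 (95% interval -0.79 to 0.43, limma adjusted p = 0.698), with the groups overlapping. Of 8 mast cell markers, Cma1, Tpsb2, Mcpt4 and Ms4a2 had no reads in any library. The whole list summed to 44.1 to 62.0 RPM in libraries labelled KO and 26.1 to 65.8 RPM in the controls, and none of its 3 tested genes was called. The 2 genes that code for prostaglandin D synthases thus stood at very different levels. Per kilobase of annotated exon, Ptgds averaged 686 RPM in libraries labelled KO, 316 in Het and 511 in WT. Hpgds averaged 0.195, 0.229 and 0.222 RPM per kilobase in the same order of groups.

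Ptges, the inducible microsomal prostaglandin E synthase, was also higher in libraries labelled KO. It had a lowest value of 11.35, a median of 16.7 and a highest value of 19.3 RPM there. Het replicates 1 to 4 had 6.94, 8.54, 11.3 and 8.76 RPM, and WT replicates 1 to 3 had 8.196, 12.3 and 7.56 RPM. Of the libraries labelled KO, 5 of 6 exceeded all 7 controls, and KO replicate 1 fell inside the WT range. The log2 difference was 0.77 (SE 0.178, limma adjusted p = 0.00363), or 1.70-fold. The call ended with quantile normalization (log2 0.48, limma adjusted p = 0.0598). It also ended when KO replicates 1 to 3 were the sole libraries labelled KO (0.66, limma adjusted p = 0.0507).

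Unlike Ptgds, Ptges had overlapping levels in the 2 kinds of control. Het libraries averaged 8.88 ± 1.80 RPM (SD, n = 4) and WT libraries 9.36 ± 2.60 RPM (n = 3), a difference of -0.06 (95% interval -0.58 to 0.46, limma adjusted p = 0.991). Whether Ptgds and Ptges differ from each other in this was not tested. Libraries labelled KO exceeded Het by 0.79 (SE 0.212, limma adjusted p = 0.0106), a call that ended with quantile normalization (0.46, limma adjusted p = 0.141). Against WT they exceeded by 0.73 with limma adjusted p = 0.0515, which did not pass. Within title number 2 the difference from the controls was 0.82 (SE 0.224, limma adjusted p = 0.0282), with all 3 values above the 6 controls.

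Ptges2, a membrane-associated prostaglandin E synthase, took its highest value in a WT library. It had 11.35 to 16.4 RPM in libraries labelled KO, with a median of 14.3 RPM. Het replicates 1 to 4 had 7.19, 9.08, 9.36 and 7.24 RPM, while WT replicates 1 to 3 had 13.1, 18.1 and 9.798 RPM. Libraries labelled KO and WT overlapped, and all Het libraries lay below both. Against control the difference was 0.44 (95% interval 0.02 to 0.85, limma adjusted p = 0.120), and without WT replicate 2 it passed (0.57, limma adjusted p = 0.0314). Against Het it was 0.71 (SE 0.206, limma adjusted p = 0.0174). That call ended with median-of-ratios scaling (limma adjusted p = 0.0619), quantile normalization (0.214), and without Het replicate 1 (0.0580) or Het replicate 4 (0.0544). Against WT it was 0.07 (95% interval -0.40 to 0.54, limma adjusted p = 0.880), and Het against WT gave -0.64 (95% interval -1.15 to -0.13) with limma adjusted p = 0.723.

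Ptges3, better known as the HSP90 co-chaperone p23 and also able to make prostaglandin E2, had the smallest difference from control of the tested members. It averaged 37.9 ± 4.78 RPM in libraries labelled KO (SD, n = 6), 36.1 ± 4.90 RPM in Het (n = 4) and 33.5 ± 1.27 RPM in WT (n = 3). Against control the difference was 0.11 (95% interval -0.13 to 0.35, limma adjusted p = 0.530). It stood below 0 with median-of-ratios scaling (-0.040) and with quantile normalization (-0.093), so it has no stable direction.

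The cyclooxygenases, which feed all of these synthases, were barely detected. Ptgs1, the constitutive form, had 0 to 2.78 RPM in libraries labelled KO, with 47 reads in 4 of 6 libraries. The controls had 0 to 1.24 RPM, with 24 reads in 4 of 7 libraries. Ptgs2, the inducible form, had 5, 1 and 1 reads in 3 libraries labelled KO, all of title number 2, and none in the other 3. It had none in any of the 7 controls, each of which allows up to 3 reads. Neither gene reached the mean of 1 RPM needed for the test. In a fit with no such limit, limma gave adjusted p = 0.382 for Ptgs1 and 0.203 for Ptgs2.

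Hpgd, the 15-hydroxyprostaglandin dehydrogenase, was not called against control. It had 10.1 to 19.5 RPM in libraries labelled KO, with a median of 13.3 RPM. Het replicates 1 to 4 had 8.33, 12.3, 7.57 and 6.91 RPM, and WT replicates 1 to 3 had 9.41, 7.91 and 16.9 RPM. All 6 libraries labelled KO exceeded the control mean, but only 2 exceeded every control. The difference was 0.51 (95% interval 0.08 to 0.95, limma adjusted p = 0.0789). It passed without WT replicate 3 (0.64, limma adjusted p = 0.0210). Against Het it was 0.64 (95% interval 0.14 to 1.15, limma adjusted p = 0.0628), which passed without KO replicate 2 (0.73, limma adjusted p = 0.0425) or Het replicate 2 (0.80, limma adjusted p = 0.0328).

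Counted over the family, 2 of the 6 tested members (Ptgds and Ptges) were higher in libraries labelled KO than in control, none was lower and 4 were not called. Of all 16235 genes tested, 24.6% were called: 18.4% were higher and 6.18% lower. The median log2 difference of the 6 was 0.47, beside 0.16 over all genes tested. With the table's scaling the middle gene stood 0.16 above 0, and Ptgds stood 0.67 and Ptges 0.61 above that gene. Whether the scaling or the tissue sets this shift was not tested. All-gene calls numbered 2994 higher and 1003 lower. They were 1712 and 1716 with median-of-ratios scaling and 1460 and 1532 with quantile normalization.

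Against Het alone, 3 of 6 members were higher (Ptgds, Ptges and Ptges2), where 22.1% of all genes were called, 16.9% higher and 5.15% lower. Against WT alone none of 6 was called, where 9.39% of all genes were (6.05% higher and 3.34% lower), and without KO replicate 1 or WT replicate 2 Ptges was called. No gene of the table was called in Het against WT (0% by limma and none by limma-voom, with 957 genes at an unadjusted p under 0.05), though 3 genes were called lower without WT replicate 1. Between the KO libraries of number 2 and number 1, 0.345% of all genes (0.154% higher and 0.191% lower) and none of the members were called. Their differences ran from -0.20 for Hpgd to 0.22 for Ptges. These comparisons share libraries and are given side by side only.

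**Figure D2:**
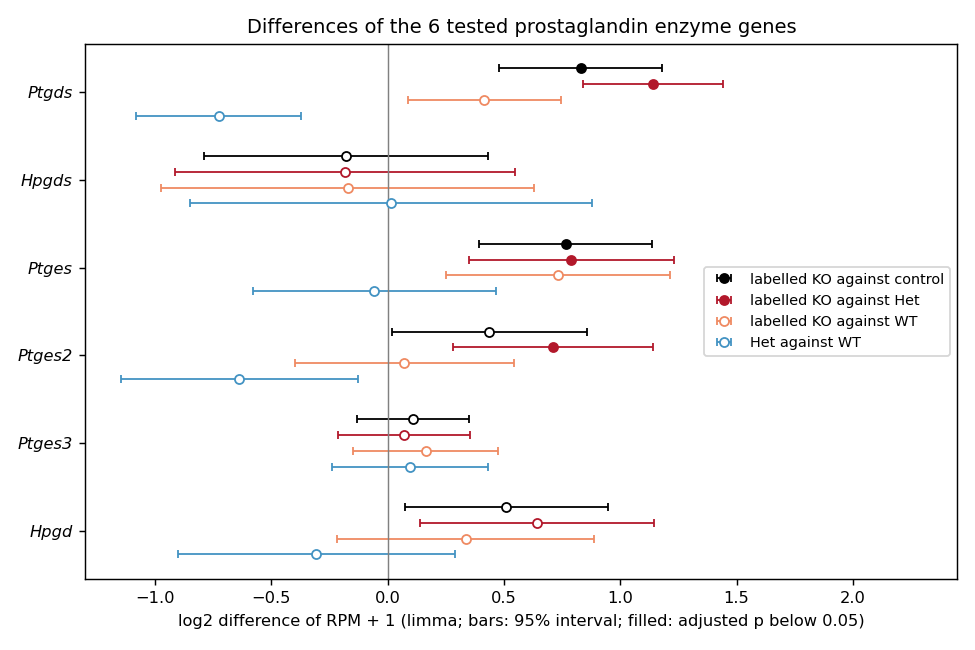
Log2 differences of the 6 tested genes with 95% intervals from limma, for libraries labelled KO against control, against Het and against WT, and for Het against WT; filled points passed an adjusted p of 0.05. Ptgds shows 0.83, 1.14, 0.41 and -0.73 in that order, and Ptges 0.77, 0.79, 0.73 and -0.06.

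Per kilobase of annotated exon, Ptgds made up 95.3% ± 1.12 of the summed level of the 8 members in libraries labelled KO (SD, n = 6). It made up 92.1% ± 2.17 in Het (n = 4) and 94.9% ± 0.950 in WT (n = 3). Next in level per kilobase was Ptges3, at 17.1 RPM in libraries labelled KO, 16.3 in Het and 15.1 in WT. Hpgd followed with 8.48, 5.22 and 6.79 RPM per kilobase in the same order. Ptges (4.098, 2.26 and 2.38) and Ptges2 (2.79, 1.63 and 2.70) came next. Ptgs1 (0.293, 0.134 and 0.0953) and Hpgds, given above, were lower still, with Ptgs1 the higher in libraries labelled KO and Hpgds the higher in Het and WT. Ptgs2 was lowest, at 0.0345 in libraries labelled KO and 0 in both kinds of control. The exon lengths came from GENCODE and include all listed isoforms, so the longer genes may be set too low.

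Markers of several cell types, somatic and germ, differed in the same libraries as Ptgds. The all-gene shares called, 18.4% higher and 6.18% lower, are the background for the counts. A list of 10 Leydig cell genes, such as Star and Cyp17a1 of steroid synthesis, summed to 5834 to 10160.5 RPM in libraries labelled KO and 2441 to 4360.4 RPM in the controls. Of these 9 were called higher and none lower. A list of 12 Sertoli cell genes summed to 2631 to 4083 RPM in libraries labelled KO and 1489 to 2483 RPM in the controls, with 7 called higher and none lower. All 9 genes of elongating spermatids were lower, with sums of 5661 to 8978 RPM in libraries labelled KO and 13645 to 18018 RPM in the controls. Of 7 round spermatid genes 3 were called lower and none higher. Their sums were 1728 to 2025 RPM in libraries labelled KO and 2047 to 2261 RPM in the controls, without overlap. Of 6 pachytene spermatocyte genes 1 was called lower, with overlapping sums. Of 7 endothelium genes 2 were called higher, also with overlapping sums. Of 10 macrophage genes 7 were called higher, though their sums overlapped, at 966 to 1156 RPM in libraries labelled KO and 897 to 1058 RPM in the controls. The 7 peritubular and smooth muscle genes, also somatic, summed to 349 ± 46.7 RPM in libraries labelled KO and 388 ± 26.2 RPM in the controls, with 2 called higher and 1 lower. The 7 spermatogonia genes summed to 135 to 217 RPM in libraries labelled KO and 80.4 to 117 RPM in the controls, without overlap, with 2 called higher. Between the kinds of control, the Leydig sum was lower in Het (2833 ± 427 RPM, SD, n = 4) than in WT (3743 ± 600.1 RPM, n = 3), with overlapping ranges. The Sertoli sum was 1489 to 1664 RPM in Het and 1586 to 2483 RPM in WT, also overlapping. The endothelium list (7.98 to 24.5 RPM in Het, 31.7 to 34.9 RPM in WT) and the platelet list (7.75 to 14.5 RPM in Het, 17.2 to 20.3 RPM in WT) did not overlap. Nor did the peritubular and smooth muscle list (354 to 387 RPM in Het, 392 to 438 RPM in WT). The part of these cell types in the level of Ptgds was not tested.

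The ratio of Ptgds to the Leydig sum can be read directly. It was 0.163 ± 0.0313 in libraries labelled KO (SD, n = 6), 0.182 ± 0.0294 in Het (n = 4) and 0.228 ± 0.0377 in WT (n = 3). Its range in libraries labelled KO, 0.122 to 0.203, overlapped those of Het (0.14 to 0.208) and WT (0.201 to 0.271). The ratio to the Sertoli sum was 0.339 ± 0.0920 in libraries labelled KO, 0.335 ± 0.0730 in Het and 0.414 ± 0.121 in WT. The mean ratio in libraries labelled KO was below that of WT for both lists. Beside Het it was lower for the Leydig list and slightly higher for the Sertoli list. Both sums were themselves higher in libraries labelled KO, and what sets these ratios was not tested. Epididymis, where Ptgds is abundant, was checked too: its markers Lcn5 and Lcn8 had no reads in any library. Its list of 11 genes summed to 14.0 to 43.6 RPM in libraries labelled KO and 14.0 to 21.3 RPM in the controls, and 1 of its 4 tested genes was called higher, where 18.4% of all genes were. KO replicates 1, 3 and 5 had sums of 43.6, 29.1 and 22.2 RPM, above every control, and the other libraries labelled KO lay within the control range. The part of epididymis in the level of Ptgds was not tested.

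**Figure D3:**
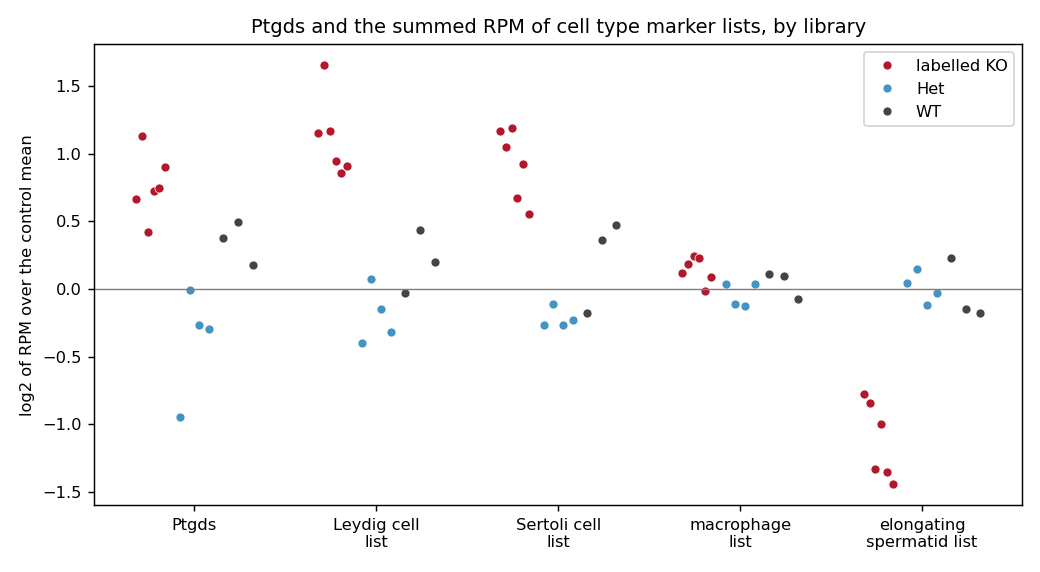
Log2 of the RPM of Ptgds, and of the summed RPM of 4 marker lists, over the mean of the 7 controls, with 1 point per library. Ptgds, the Leydig cell list and the Sertoli cell list lie above the control mean in all 6 libraries labelled KO, and the elongating spermatid list lies below it in all 6.

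The genes whose profile over the 13 libraries was most like that of Ptgds were sought among all tested genes, by the root mean square difference of centred log2(RPM + 1). The nearest was Cyp11a1, the cholesterol side-chain cleavage enzyme that starts steroid synthesis (0.152, where the median gene had 0.586). It averaged 466 ± 60.7 RPM in libraries labelled KO, 200.04 ± 51.4 RPM in Het and 291 ± 6.29 RPM in WT. Cyp11a1 is on the Leydig list above. Next were Pgm2, a phosphoglucomutase (0.155), and Gpt2, the mitochondrial alanine aminotransferase (0.185), which are not on that list. All 3 had the same order of group means as Ptgds, which a search by profile favours. For Ptges the nearest were Slc22a5, a carnitine transporter (0.160), Pja1, a ubiquitin ligase (0.175), and Gnas, the stimulatory G protein subunit (0.191), where the median gene had 0.509.

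Around the family, 51 other listed genes of the pathway were in the table and 34 were tested, while Fam213b, Prxl2b, Ptgr3 and Ptgdr2 were not analysed here. Of the 34, 8 (23.5%) were called higher in libraries labelled KO and none lower, beside 18.4% higher and 6.18% lower over all genes. The median of the 34 was 0.25, beside 0.16 over all genes. Tbxas1, set apart below, is among the 8. Pla2g2d and Ltc4s, not called, averaged 0.485 and 0.945 RPM in the controls. Like Tbxas1, they reached the mean of 1 RPM only through the libraries labelled KO. The median includes these genes and adds no support. In this paragraph values are log2 differences against control. Of 11 tested phospholipase A2 genes only Pla2g4a, the cytosolic enzyme that frees arachidonic acid, was called (0.91, SE 0.296, limma adjusted p = 0.0286). It averaged 6.68 ± 2.60 RPM in libraries labelled KO and 3.21 ± 1.73 RPM in the controls. Pla2g6, a calcium-independent phospholipase, had 289 ± 32.1 RPM in libraries labelled KO and 283 ± 23.3 RPM in the controls (0.03, limma adjusted p = 0.858).

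Among 7 other tested prostanoid synthases 4 were called higher, where 18.4% of all genes were. Tbxas1, among these 4, is set apart below. The aldose reductase Akr1b3, which also makes prostaglandin F2 alpha in mice, had 93.2 ± 12.0 RPM in libraries labelled KO and 66.2 ± 7.93 RPM in the controls (0.49, limma adjusted p = 0.00222). It overlaps another gene of the table, as does Tbxas1, and the counting strand is not known. The carbonyl reductases Cbr1 (0.53) and Cbr2 (0.96) had limma adjusted p = 0.0119 and 0.00508. Cbr1 had 13.5 to 16.2 RPM in libraries labelled KO and 8.84 to 11.3 RPM in the controls, without overlap. The thromboxane synthase Tbxas1 had 0.665 to 5.32 RPM in libraries labelled KO and 0 to 1.11 RPM in the controls. It reached the mean of 1 RPM only through the libraries labelled KO, so its call (limma adjusted p = 0.0147) adds no support to the count. Its log2 difference depended on the pseudocount: 1.08 with 1, 0.72 with 2 and 1.51 with 0.5, and 2.79 by limma-voom. Ptgis, the prostacyclin synthase, was not called (0.13, limma adjusted p = 0.713).

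Of 6 tested genes of transport and further breakdown, Ptgr1 was higher. It is a reductase that acts after Hpgd on the same route. It had 54.3 to 99.9 RPM in libraries labelled KO and 28.0 to 55.6 RPM in the controls, with 4 of 6 above every control (0.97, SE 0.169, limma adjusted p = 0.000319). Of 4 tested receptor genes, Ptger4, the prostaglandin E2 receptor EP4, was higher without overlap, at 9.08 to 15.05 RPM in libraries labelled KO and 5.06 to 8.71 RPM in the controls (0.61, limma adjusted p = 0.0184); it overlaps Ttc33. The prostaglandin D2 receptor Ptgdr averaged 1.77 ± 1.09 RPM in libraries labelled KO and 2.60 ± 0.897 RPM in the controls (-0.43, limma adjusted p = 0.278). Of 6 tested genes of the lipoxygenase branch, only Aloxe3 was called (0.80, limma adjusted p = 0.0376).

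The firmness of these 8 calls varied. Against WT alone, Ptgr1 (limma adjusted p = 0.0256) and Akr1b3 (0.0460) passed and the others did not (0.0718 to 0.175). Against Het alone, Pla2g4a (limma adjusted p = 0.109), Ptger4 (0.0693) and Aloxe3 (0.103) did not pass, and the others did. The runs that follow are of the test against control. Ptgr1 passed under every alternative run. Tbxas1 passed where it was tested, but fell under the limit of 1 RPM and got no test without KO replicate 1, without KO replicate 6, with either title number of KO alone, or within number 2. Akr1b3 and Cbr2 were lost only with the KO libraries of number 2, against all controls (limma adjusted p = 0.0898 and 0.204) or against those of number 2 (0.0837 and 0.247). Cbr1 and Ptger4 were lost in those settings (0.107 to 0.218), with median-of-ratios scaling (0.0641 and 0.0708) and with quantile normalization (0.269 and 0.227). Ptger4 was also lost without KO replicate 3 (0.0516) and with title number as a covariate (0.0708). Pla2g4a was lost without any 1 of 5 libraries (KO replicates 2, 4 and 6, Het replicate 1, WT replicate 3, with p of 0.0506 to 0.0742) and in 6 other settings (0.0621 to 0.211), its log2 difference then being 0.65 to 0.96. Aloxe3 was lost without any 1 of 9 libraries (KO replicates 1, 2, 4, 5 and 6, Het replicates 3 and 4, WT replicates 1 and 2, with p of 0.0521 to 0.0818) and in 6 other settings (0.0656 to 0.365), its log2 difference then being 0.46 to 0.97.

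**Figure D4:**
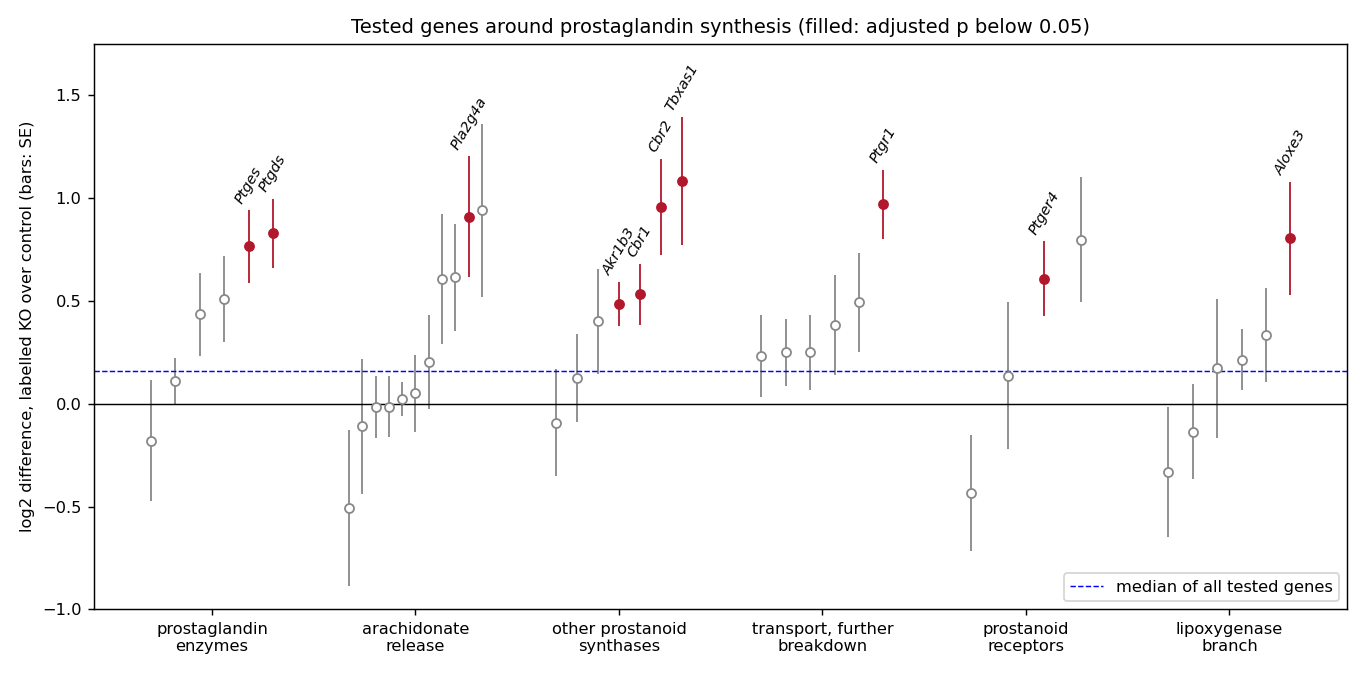
Log2 difference of libraries labelled KO over control, with its SE, for the 40 tested genes of the member list and 5 related lists; filled points passed an adjusted p of 0.05 and the dashed line is the median of all tested genes (0.16). All 10 called genes lie above 0, and the 4 called genes of the other synthases run from 0.49 for Akr1b3 to 1.08 for Tbxas1. Tbxas1, Pla2g2d and Ltc4s reached the mean of 1 RPM only through the libraries labelled KO.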

How the data were processed

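Per the labels' protocols, each Smart-seq2 library was made from about 2 ng of testis RNA and amplified over 11 PCR cycles. The authors deposited log2 RPM values, 1 column per library. Per the submitters' processing notes, FastQC 0.11.8, Trim Galore 0.6.6 and mm10 were used, while the aligner, the counter and the strand setting were not given by the sources used. Reads were recovered from the log2 values: the lowest value of a library is that of 0.9 read and was set to 0, and at least 99.96% of the others were whole (within 0.01 read). The depth behind the values was 4.51 to 11.1 M (mega) reads per library.

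Differences were fitted with limma 3.58.1 in R 4.3.3, with a mean-variance trend, on log2(RPM + 1) over genes averaging 1 RPM or more. Tests were two-sided, with Benjamini-Hochberg adjusted p-values over all these genes and a threshold of 0.05. WT, Het and KO were 3 groups in 1 fit, and KO against control and the title numbers had fits of their own. The fit was also run on simulated counts, with the same relative spread for all genes and no overall shift. That run does not measure its error rate in these libraries. Alternatives were other pseudocounts, no filter, median-of-ratios and quantile scaling, limma-voom on the recovered reads, the replicate number as block, the title numbers, and leaving out single libraries. No sources say that equal replicate numbers share a mouse or litter.

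Members and lists were chosen with earlier results of these data known. Besides the members, the rule named the called genes of each pathway list (at most 4) and the 3 nearest profiles of each called member. Upstream windows are from RefSeq (GRCm38.p6), and all 8 members matched. Exon lengths are from GENCODE (mouse, GRCm38).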

Additional observations from a re-analysis of the deposited data

Results flagged for a closer look

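Single libraries were compared with the rest of their group for the 8 members and the 8 named pathway genes, in 46 sets of libraries, of which chance alone flags about 1 in 20. Both flags were on Tbxas1, the thromboxane synthase gene. KO replicate 1 had 5.32 RPM, where the next highest library labelled KO had 2.41 RPM. WT replicate 1 had 1.11 RPM, where the next highest control had 0.337 RPM. None of the 8 prostaglandin enzymes was flagged.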

How the results depend on the processing

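Of 504 member values recomputed under alternatives, 464 kept their direction and side of the threshold, 7 lost a call, 6 gained one and 27 changed sign. Ptgds kept its call against control in every alternative run. Against control, 1 member in place of 2 was called with quantile normalization and with KO number 1 alone, and 2 to 3 when 1 library was left out. All-gene calls numbered 3997, and 1931 with KO number 2 alone, 1549 within number 2, and 3259 to 3997 without single libraries. Against WT, 0 to 1 members were called without single libraries; against Het, 1 in place of 3 with quantile normalization and 2 to 4 without single libraries. All genes called against WT ranged from 454 without WT replicate 1 and 936 without WT replicate 2 to 1736, against 1525. Between the title numbers they ranged from 11 to 29, against 56, and were 20 with no filter on low values. The sign changes were all of differences that passed no test. Ptges3 turned to -0.040 and -0.093 against control and to -0.10 and -0.15 against Het (median-of-ratios, quantile), and to -0.012 against WT (quantile). Ptges2 against WT turned to -0.046 and -0.17 (the same settings) and ranged from -0.13 to 0.28 without single libraries. In Het against WT, Ptges turned to 0.047 (quantile) and ranged over -0.18 to 0.14 without single libraries, and Hpgds turned to -0.056 (replicate block) and ranged over -0.22 to 0.18. For number 2 against number 1, Ptges2 turned to 0.014 with quantile normalization. The cause of these changes was not tested.

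Equal replicate numbers did not mark pairs: the deviations of 10 same-numbered pairs of libraries correlated between -0.0835 and 0.126. With the replicate number as block, 2 members were called against control, 0 against WT and 3 against Het, as without it, and 3830 genes in all. Between the title numbers, where no gene was called with the block, Ptgds turned to -0.12, Ptges2 to 0.36, Hpgd to 0.086 and Hpgds to -0.15. Without single libraries they ranged from -0.11 to 0.25 for Ptgds, -0.24 to 0.0081 for Ptges2, -0.074 to 0.16 for Ptges3 and -0.22 to 0.53 for Hpgds. Libraries of groups outside a comparison were not left out of it. Depth limits Ptgs1, Ptgs2 and Hpgds, with at most 26 reads in a library.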
